A study of Mus musculus with 9 samples.

Results

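The genes described here are 10 components of the transforming growth factor beta (TGF-beta) pathway: the ligand gene Tgfb1, the receptor genes Tgfbr1 and Tgfbr2, the signal transducer genes Smad1, Smad2, Smad3, Smad4 and Smad5, the inhibitory gene Smad7 and the corepressor gene Ski. They were chosen by symbol, and all 10 were found among the 38215 genes of the expression table. RNA was sequenced from LSK cells of 9 C57BL/6J mice. LSK cells lack lineage markers, carry Sca1 and Kit, and include the haematopoietic stem cells and multipotent progenitors of the bone marrow. Every mouse carried Jak2V617F, an activating form of a cytokine receptor kinase known from myeloproliferative neoplasms, and every mouse had received tamoxifen. The 5 mice of the EV group had Jak2V617F alone, and the 4 mice of the sgZrsr2 group (numbered 1, 2, 3 and 5) had Jak2V617F together with sgZrsr2. The cells were sorted as positive for GFP and mCherry at the end point of the experiment. EV and the prefix sg are used as the labels write them, with no meaning given there, and the age of the mice and what drives the Jak2 allele were not given in the sources used here. Zrsr2 encodes a splicing factor that recognises the 3′ splice sites of introns, and the study's own design text describes the sgZrsr2 mice as having lost it; the comparison asks how their Jak2-mutant stem and progenitor cells differ from those of the EV mice.

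TGF-beta is secreted in a latent form and, once released, binds a type II receptor that recruits and phosphorylates a type I receptor. The type I receptor phosphorylates Smad2 and Smad3, or Smad1 and Smad5 in the bone morphogenetic protein (BMP) branch, and these join Smad4 and enter the nucleus to regulate target genes. Smad7 is itself a target gene and blocks the receptor, while Ski and its relative Skil hold Smad complexes in a repressed state. In bone marrow, TGF-beta is known for keeping haematopoietic stem cells quiescent, and megakaryocytes are known as one of its sources.

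Library totals ran from 23238264 to 45585531 expected counts, and each member had between 1210 and 21814 counts in a library, so counting error is small beside the spread between mice. Zrsr2, the targeted gene, lay between 50.6 and 62.2 CPM (counts scaled to a common library size, with TMM normalization) in EV and between 31.7 and 44.4 in sgZrsr2, with no overlap (log2 fold change -0.46, standard error (SE) 0.12, edgeR adjusted p = 0.714, exact two-sided permutation p = 0.0159, the smallest that 5 against 4 libraries allow). The summed level of 6 LSK marker genes was 1311 to 1737 CPM in EV and 1443 to 1666 in sgZrsr2, most of it from Kit, Cd34 and Flt3. Ly6a, the gene of Sca1, was low beside them, at 14.8 to 49.2 CPM in EV and 25.0 to 39.2 in sgZrsr2. Genes of other lineages were present: Dntt, a lymphoid gene, reached 281 CPM, and the monocyte genes Ccr2 and Csf1r reached 211 and 137 CPM. The neutrophil genes S100a8, S100a9, Ltf, Camp and Ngp were highest in sgZrsr2 mouse 3 and next in EV mouse 5. S100a9 had 56.9 and 49.5 CPM in these mice and 2.23 to 13.6 CPM in the other libraries. The T-cell gene Cd3e and the neutrophil gene Ly6g did not exceed 0.0871 and 0.0556 CPM in any library. EV mouse 5 and sgZrsr2 mice 3 and 5 stood apart: the sum of 8 erythroid genes was 54.4, 113 and 64.6 CPM there and 3.56 to 5.33 in the other 6 libraries. sgZrsr2 mice 1 and 2 were the most alike of all pairs, but their counts differed by more than sampling noise. The p-values given here set the difference between the groups against the spread between these libraries. In bulk RNA, fewer cells of a type and less RNA per cell cannot be told apart.

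All 10 members were measured in every library, and 8 of the 10 had a higher fitted level in sgZrsr2 than in EV. Tgfb1 and Smad7 were the 2 with a lower fitted level. The median log2 fold change of the members was 0.20, against -0.01 over the 14944 genes tested, of which 48.5% were above 0. With edgeR, neither a member nor any other gene reached the adjusted threshold of 0.05 (0% of genes tested), while DESeq2 called 16 genes there, none of them a member. At an unadjusted p under 0.05 stood 1 member, Tgfbr2, in the higher direction, beside 6.85% of all genes tested in either direction and 3.87% in that direction. The share of members, 1 of 10, is thus near that of all genes at this small number. With limma-voom and sample quality weights, Smad4 joined Tgfbr2 at that p, beside 17.1% of all genes. The groups did not separate completely for any member, while they did so for 3.06% of all genes. Tgfbr2 separated without sgZrsr2 mouse 5, its only sgZrsr2 mouse below any EV mouse (7.1% of genes then), and with upper-quartile factors (3% of genes).

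**Figure D1:**
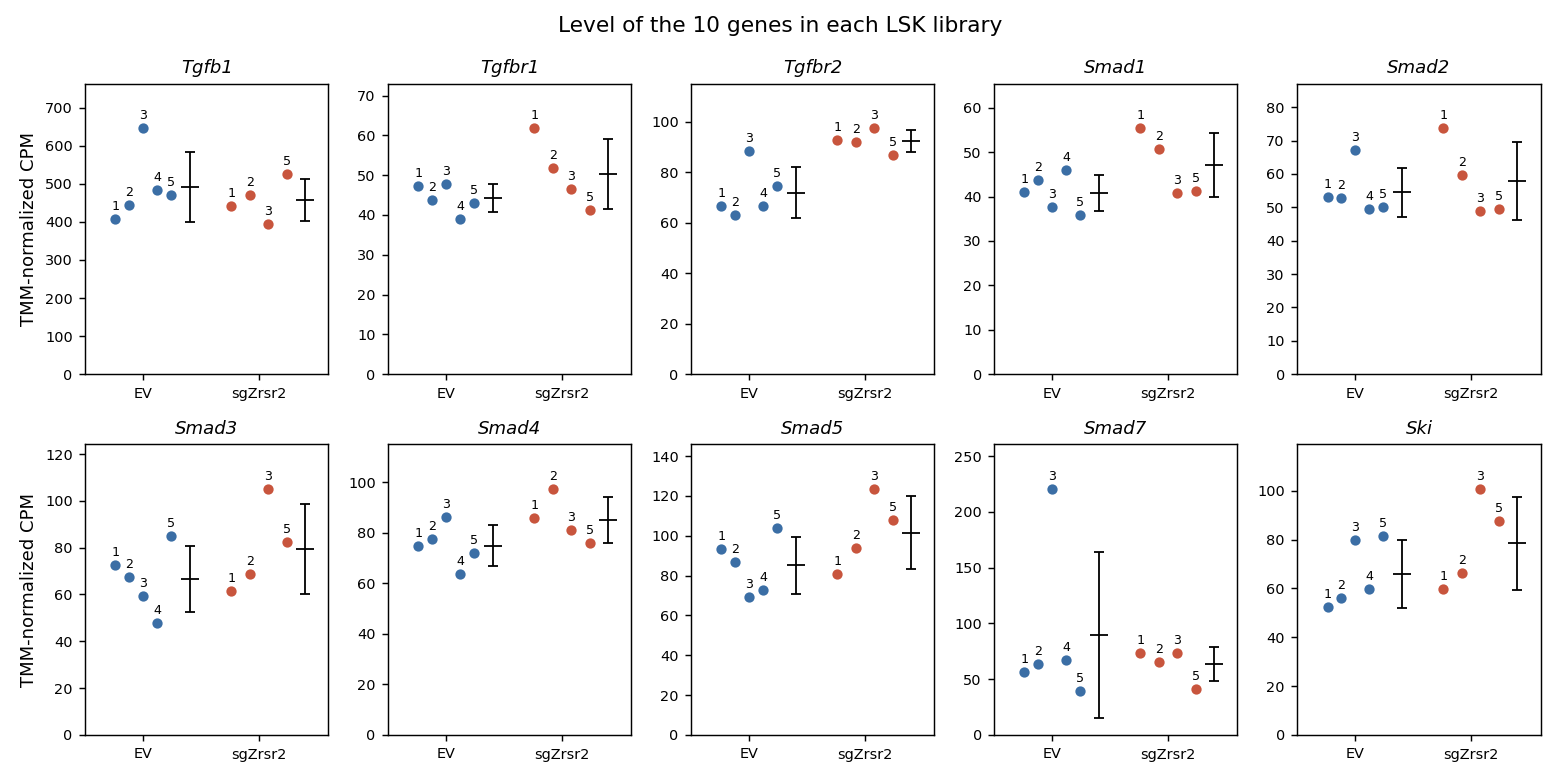
Normalized CPM (vertical axes, from 0) of the 10 members in the 5 EV (blue) and 4 sgZrsr2 (red) libraries; each point is 1 mouse with its number beside it, and black bars are the group mean ± SD. The sgZrsr2 values of Tgfbr2 lie between 87.0 and 97.5 and overlap only EV mouse 3 at 88.3, and EV mouse 3 stands far above the others for Smad7.

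**Figure D2:**
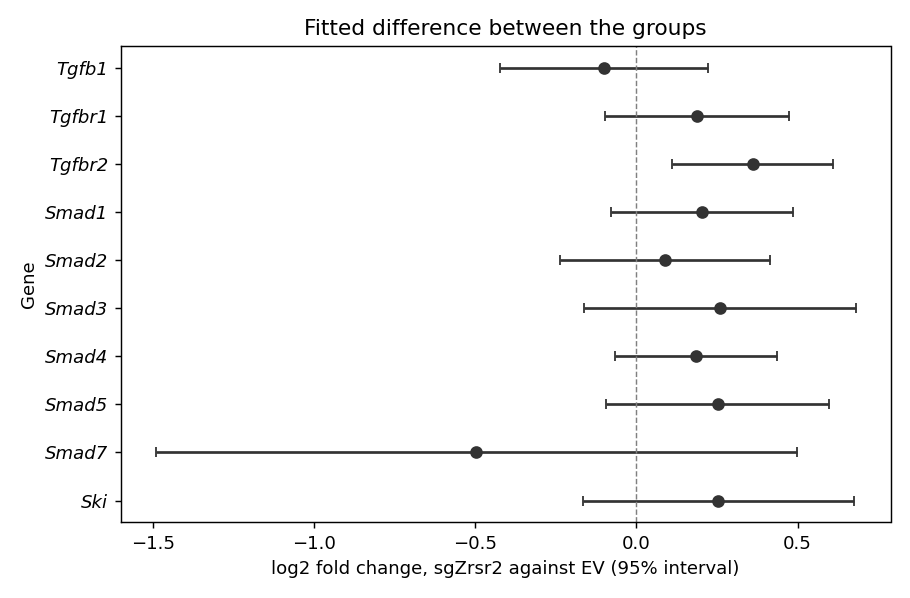
Fitted log2 fold change of each member, sgZrsr2 against EV (horizontal axis), as a point with its 95% interval from edgeR's quasi-likelihood fit. The interval of Tgfbr2, 0.11 to 0.61, lies above 0, and those of the other 9 members include 0.

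Per kilobase of exon, the ligand gene Tgfb1 had the highest level of the 10 members, with 97.4 ± 18.2 CPM per kb in EV (SD, n = 5) and 90.9 ± 10.9 in sgZrsr2 (SD, n = 4). Smad4 followed at 20.2 ± 2.20 CPM per kb in EV and 22.9 ± 2.48 in sgZrsr2. No library's Tgfb1 level came down to any Smad4 level in either group. In EV, Smad7 was next at 19.8 ± 16.4 CPM per kb, a mean raised by 1 mouse, and then Smad3 at 11.9985, Ski at 11.9 and Smad5 at 11.5. In sgZrsr2, Smad3, Ski, Smad7 and Smad5 lay between 13.7 and 14.3 CPM per kb. From Smad4 down to Tgfbr2 in EV, and from Smad3 down to Tgfbr2 in sgZrsr2, each gene overlapped its neighbour in this order over the libraries. Tgfbr1, Smad1 and Smad2 had the lowest levels, at 6.76, 6.52 and 6.21 CPM per kb in EV and 7.70, 7.52 and 6.60 in sgZrsr2, and these 3 overlapped one another. Tgfbr2 lay above Tgfbr1 in both groups without overlap, at 8.78 ± 1.23 CPM per kb against 6.76 ± 0.543 in EV and 11.3 ± 0.528 against 7.70 ± 1.35 in sgZrsr2.

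Tgfb1 (ENSMUSG00000002603), on GRCm38 chromosome 7 from 25687002 to 25705077 on the plus strand, encodes TGF-beta 1, the main TGF-beta of blood cells. Its normalized levels were 409, 445, 647, 484 and 471 CPM in EV mice 1 to 5. In sgZrsr2 mice 1, 2, 3 and 5, the order kept throughout, they were 441, 471, 395 and 526 CPM. The groups overlapped almost entirely, with EV mouse 3 the highest of all and sgZrsr2 mouse 3 the lowest. The means were 492 ± 91.6 and 459 ± 54.9 CPM (SD, n = 5 and 4), and the log2 fold change was -0.10 with a 95% interval of -0.42 to 0.22 (edgeR adjusted p = 0.867). Without EV mouse 3 the sign turned, to 0.01, so the data give the ligand gene no direction.

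The other ligand genes of the family were low in these cells, and 7 of 14 listed passed the filter on low counts. Of these 7, 2 were higher and 5 lower in sgZrsr2 (median log2 fold change -0.08, or 0.11 without EV mouse 3), and none had an unadjusted p under 0.05. Bmp1, which despite its name encodes a protease that processes matrix proteins, ran from 11.8 to 18.2 CPM in EV and from 12.9 to 24.004 in sgZrsr2. Bmp2, a BMP ligand, did not exceed 0.996 CPM in any library. Tgfb3, a ligand of the same receptors as Tgfb1, ran from 0.311 to 1.02 CPM over the 9 libraries, and Tgfb2, which did not pass the filter, did not exceed 0.355.

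Of 12 genes for the storage and release of latent TGF-beta, 9 were tested, and 6 of these were higher and 3 lower in sgZrsr2 (median log2 fold change 0.22, or 0.46 without EV mouse 3). The 1 gene of this list at an unadjusted p under 0.05 (6.85% of all genes) was Itgav, the alpha V integrin chain, a part of integrins that bind latent TGF-beta and release it. Itgav had 19.995, 18.4, 18.4, 17.6 and 23.2 CPM in EV mice 1 to 5. The sgZrsr2 mice had 40.6, 31.1, 24.5 and 22.1 CPM. sgZrsr2 mice 1, 2 and 3 lay above every EV mouse and mouse 5 lay within the EV range, and the log2 fold change was 0.60 (SE 0.18, edgeR adjusted p = 0.714, unadjusted p = 0.0077). Furin, the protease that cleaves the TGF-beta precursor, had 74.5 to 86.1 CPM in 4 EV mice, 127 in EV mouse 3 and 109 to 113 in the 4 sgZrsr2 mice. EV mouse 3 was the only EV mouse above any sgZrsr2 mouse, so leaving it out was bound to separate the groups and adds no support for a difference. Without EV mouse 3 the log2 fold change of Furin went from 0.31 (unadjusted p = 0.0715) to 0.46 (unadjusted p = 0.000375). In that fit 5.4% of all genes did not overlap and 7.44% had an unadjusted p under 0.05. Nrros, listed in the table as Lrrc33 and known to hold latent TGF-beta 1 on the surface of myeloid cells, was the gene with the highest CPM of the list, at 192 to 259 CPM in EV and 241 to 279 in sgZrsr2.

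Among the receptors, Tgfbr2 (ENSMUSG00000032440), on chromosome 9 from 116087698 to 116175363 on the minus strand, encodes the type II receptor that binds TGF-beta first. Its levels were 66.7, 63.1, 88.3, 66.8 and 74.5 CPM in EV mice 1 to 5. In the 4 sgZrsr2 mice Tgfbr2 was at 92.8, 91.8, 97.5 and 87.0 CPM. All 4 sgZrsr2 mice lay above 4 of the 5 EV mice, and EV mouse 3 lay just above the lowest sgZrsr2 mouse. The group means were 71.9 ± 10.1 and 92.4 ± 4.35 CPM (SD, n = 5 and 4), 1.28-fold apart. The fitted log2 fold change was 0.36 with an SE of 0.11 and a 95% interval of 0.11 to 0.61, at an unadjusted p of 0.00894, which came to an adjusted p of 0.714 in edgeR over the 14944 genes. The exact two-sided permutation p was 0.0317. The difference therefore did not pass the test across all genes. EV mouse 3 was the only EV mouse above any sgZrsr2 mouse, so leaving it out was bound to separate the groups and adds no support for a difference. Without EV mouse 3 the log2 fold change was 0.44 (unadjusted p = 0.000848, with 7.44% of genes then under 0.05, edgeR adjusted p = 0.661). The groups then did not overlap, as was so for 5.4% of genes. The value stayed between 0.32 and 0.44 when any 1 library was left out, and between 0.35 and 0.47 under the other settings tried. Without the 3 libraries with high erythroid sums it was 0.38 (unadjusted p = 0.0503).

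The 250 bases before the Tgfbr2 start site, chr9:116175364-116175613 on the minus strand (RefSeq, GRCm38.p6), are shown because Tgfbr2 had the smallest unadjusted p of the members. CAGAC, the short sequence that Smad3 and Smad4 bind, was searched on both strands and is in capitals. It occurs 1 time, from 160 to 156 bases before the start, and at least 1 time in 42.2% of the 32851 promoter windows of this length.
Tgfbr2: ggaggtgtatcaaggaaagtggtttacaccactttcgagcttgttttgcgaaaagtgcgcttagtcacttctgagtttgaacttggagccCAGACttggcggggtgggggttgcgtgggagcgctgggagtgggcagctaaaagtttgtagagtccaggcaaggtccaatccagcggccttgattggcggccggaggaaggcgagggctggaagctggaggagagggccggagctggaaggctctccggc

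Tgfbr1 (ENSMUSG00000007613), on chromosome 4 from 47353222 to 47414931 on the plus strand, encodes the type I receptor kinase that passes the signal to the Smads. Its levels were 47.4, 43.8, 47.6, 39.0 and 43.0 CPM in EV mice 1 to 5. With sgZrsr2 the levels were 61.9, 51.9, 46.4 and 41.2 CPM. sgZrsr2 mice 1 and 2 lay above every EV mouse and the other 2 lay within the EV range. The log2 fold change was 0.19 with a 95% interval of -0.10 to 0.47 (edgeR adjusted p = 0.740), and without sgZrsr2 mouse 1 it was 0.07.

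The other receptors of the family were 13 listed genes, of which 10 were tested, 6 of them higher and 4 lower in sgZrsr2 (median log2 fold change 0.26, or 0.14 without sgZrsr2 mouse 5). The 2 at an unadjusted p under 0.05 (6.85% of all genes) were Bmpr2 and Acvr2b, which encode type II receptors for BMPs and for activins. In both the groups did not overlap (3.06% of all genes). Bmpr2 had 15.7, 14.9, 18.1, 12.5 and 18.2 CPM in EV mice 1 to 5 and 21.1, 23.9, 24.5 and 19.1 CPM in the sgZrsr2 mice. Its log2 fold change was 0.48 (SE 0.15, unadjusted p = 0.00956, edgeR adjusted p = 0.714). Acvr2b had 2.37 to 3.89 CPM in EV and 4.23 to 5.81 in sgZrsr2, and its log2 fold change was 0.54 (unadjusted p = 0.0425, edgeR adjusted p = 0.714). When 1 library was left out, its unadjusted p was under 0.05 in 4 of 9 fits and at most 0.122, and under the other settings in 7 of 12 and at most 0.225. Bmpr2 and Acvr2b are named here because they had the smallest p of their list. Acvr2a, another type II receptor gene for activins, overlapped widely, with 7.70 to 15.7 CPM in EV and 8.43 to 18.8 in sgZrsr2. Eng, which encodes the accessory receptor endoglin and had the highest CPM of the list, lay at 88.6 to 143 CPM in EV and 121 to 178 in sgZrsr2 (log2 fold change 0.33, unadjusted p = 0.0788).

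**Figure D3:**
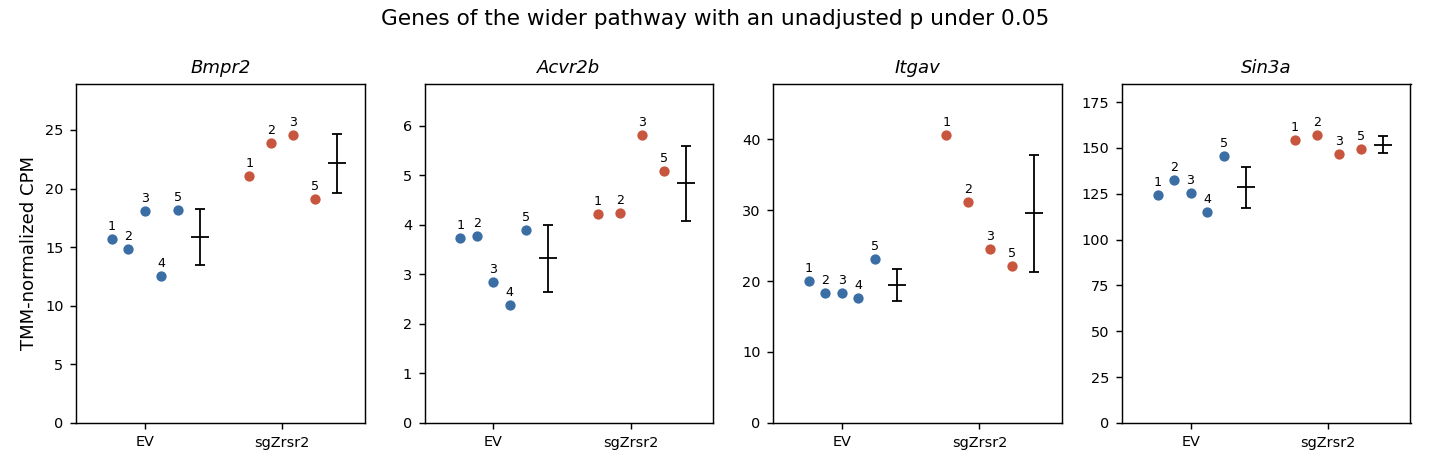
Normalized CPM (vertical axes, from 0) of Bmpr2, Acvr2b, Itgav and Sin3a, the genes of the further pathway lists at an unadjusted p under 0.05, in the EV (blue) and sgZrsr2 (red) libraries; points are mice with their numbers and black bars are the mean ± SD. The groups do not overlap for Bmpr2, Acvr2b and Sin3a, and sgZrsr2 mouse 5 lies within the EV range for Itgav.

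Smad2 and Smad3 encode the receptor-regulated Smads of the TGF-beta and activin branch, and they did not follow each other across the libraries. Smad2 (ENSMUSG00000024563), on chromosome 18 from 76241580 to 76305731 on the plus strand, had 53.1, 52.7, 67.2, 49.4 and 50.1 CPM in EV mice 1 to 5. Smad2 in the sgZrsr2 mice was at 73.8, 59.6, 48.8 and 49.6 CPM. The highest Smad2 values were those of sgZrsr2 mouse 1 and EV mouse 3, and sgZrsr2 mice 3 and 5 were among the lowest 3 of 9. The log2 fold change was 0.09 with a 95% interval of -0.24 to 0.41 (edgeR adjusted p = 0.888), and without sgZrsr2 mouse 1 it was -0.06, so the sign rests on that mouse.

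Smad3 (ENSMUSG00000032402), on chromosome 9 from 63646767 to 63757994 on the minus strand, had 72.8, 67.4, 59.1, 48.0 and 85.2 CPM in EV mice 1 to 5. The sgZrsr2 mice had 61.6, 68.6, 105 and 82.5 CPM. The 3 highest values were those of sgZrsr2 mouse 3, EV mouse 5 and sgZrsr2 mouse 5, the 3 libraries with high erythroid sums. The group means were 66.5 ± 14.1 and 79.6 ± 19.3 CPM (SD, n = 5 and 4), with a log2 fold change of 0.26 and a 95% interval of -0.16 to 0.68 (edgeR adjusted p = 0.747). Without sgZrsr2 mouse 3 the log2 fold change was 0.09, and without the 3 libraries it was 0.09 as well. By the root mean square difference of mean-centred log2 CPM over the 9 libraries, the genes most like Smad3 were Zfp319 (ENSMUSG00000074140) at 0.0768, C230081A13Rik at 0.0872 and Cbl, a ubiquitin ligase gene, at 0.0905. The median of that difference over all other genes tested was 0.448. The nearest genes were taken from 12983, after genes with an SD under 0.5 times that of Smad3 were left out. All 9 libraries entered this measure, so the 3 with high erythroid sums weigh in it.

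Smad1 and Smad5 encode the receptor-regulated Smads of the BMP branch, and they too had their high values in different mice. Smad1 (ENSMUSG00000031681), on chromosome 8 from 79338395 to 79399518 on the minus strand, had 41.1, 43.6, 37.7, 45.9 and 35.9 CPM in EV mice 1 to 5. Smad1 in the sgZrsr2 mice was at 55.4, 50.8, 40.9 and 41.2 CPM. sgZrsr2 mice 1 and 2 lay above every EV mouse, as they did for Tgfbr1, and mice 3 and 5 lay within the EV range. The log2 fold change was 0.20 with a 95% interval of -0.08 to 0.49 (edgeR adjusted p = 0.730), and without sgZrsr2 mouse 1 it was 0.11.

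Smad5 (ENSMUSG00000021540), on chromosome 13 from 56703010 to 56742377 on the plus strand, had 93.5, 86.8, 69.4, 72.8 and 104 CPM in EV mice 1 to 5. Smad5 in the sgZrsr2 mice was at 80.8, 93.6, 124 and 108 CPM. As for Smad3, the 3 highest values belonged to sgZrsr2 mice 3 and 5 and EV mouse 5, and EV mice 3 and 4 were the lowest. The log2 fold change was 0.25 with a 95% interval of -0.09 to 0.60 (edgeR adjusted p = 0.728), and without the 3 libraries with high erythroid sums it was 0.12. Over the 9 libraries Smad3 and Smad5 were the most alike of all pairs of members, with a root mean square difference of 0.109 in mean-centred log2 CPM, followed by Tgfbr1 and Smad2 at 0.111.

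The 250 bases before the start sites of Smad3 (chr9:63757995-63758244, minus strand) and Smad5 (chr13:56702760-56703009, plus strand; both RefSeq, GRCm38.p6) are shown because these members were the most alike across libraries. Capitals mark GGGCGG, the GC box bound by Sp1-type factors, searched with its reverse complement CCGCCC. Smad3 holds 2 on the strand of the gene and Smad5 holds 1 on the other strand, and 32.7% of all windows hold at least 1. Neither window holds CAGAC or AGATAA, the latter a motif of GATA-type factors that 9.99% of all windows hold. Their GC contents of 69.2% and 60% lie above the median window's 52.4%.
Smad3: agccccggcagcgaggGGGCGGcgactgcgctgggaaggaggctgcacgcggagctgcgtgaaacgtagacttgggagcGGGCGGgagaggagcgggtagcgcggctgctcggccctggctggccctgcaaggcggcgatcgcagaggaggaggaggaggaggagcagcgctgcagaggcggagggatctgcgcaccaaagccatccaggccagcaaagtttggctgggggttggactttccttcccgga
Smad5: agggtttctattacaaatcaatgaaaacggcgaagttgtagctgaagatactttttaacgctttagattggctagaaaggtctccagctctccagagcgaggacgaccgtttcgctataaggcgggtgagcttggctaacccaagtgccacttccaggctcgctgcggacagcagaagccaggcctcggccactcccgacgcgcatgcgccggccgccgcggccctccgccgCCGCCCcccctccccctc

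Smad4 (ENSMUSG00000024515), on chromosome 18 from 73639009 to 73703780 on the minus strand, encodes the shared partner of both branches and varied least of the 10 members over the libraries. Its levels were 74.7, 77.6, 86.1, 63.8 and 71.7 CPM in EV mice 1 to 5. With sgZrsr2 the levels were 85.8, 97.4, 81.1 and 75.7 CPM. sgZrsr2 mouse 2 was the highest of all, EV mouse 4 the lowest, and the other values interleaved. The log2 fold change was 0.18 with a 95% interval of -0.07 to 0.44 (edgeR adjusted p = 0.728), and it stayed between 0.11 and 0.24 when any 1 library was left out.

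Smad7 (ENSMUSG00000025880), on chromosome 18 from 75367529 to 75395935 on the plus strand, encodes the inhibitory Smad that the pathway induces against itself, and varied most of the 10 members. Its levels were 56.3, 63.9, 221, 66.9 and 39.2 CPM in EV mice 1 to 5. The sgZrsr2 mice had 73.6, 64.9, 73.4 and 41.4 CPM. EV mouse 3 lay far above the other 8 libraries, which ran from 39.2 to 73.6 CPM whichever their group. The group means were 89.5 ± 74.2 and 63.4 ± 15.2 CPM (SD, n = 5 and 4), and the log2 fold change was -0.50 with a 95% interval of -1.49 to 0.50 (edgeR adjusted p = 0.787). Without EV mouse 3 it was 0.15, so both the sign and the size rest on that mouse.

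EV mouse 3 was also the highest library for 10 of 19 tested genes on a list of TGF-beta target genes, against 20.2% of all genes tested. Cdkn1a, a cell cycle inhibitor on that list, had 337 CPM there and 53.5 to 103 CPM in the other 8 libraries. Gadd45b, a stress-response target gene, had 224 CPM there and 13.1 to 101 CPM elsewhere. Skil, the relative of Ski and itself a target of the pathway, had 222 CPM there and 40.5 to 74.5 CPM elsewhere. Not every such gene was high in EV mouse 3. Smad6, a listed negative regulator, was lowest there at 1.65 CPM, against 1.92 to 6.39 elsewhere. The target genes Cdkn1b, Ldlrad4, Zeb1 and Zeb2 lay below their own mean log2 CPM there. Cdkn1a, Skil and Smad6 were named after their values were seen. EV mouse 3 had the lowest scaling factor (0.894). What sets this library apart was not tested. By the same measure of likeness as for Smad3, the genes most like Smad7 were Irs2 at 0.215, Plk3 at 0.225 and March1 at 0.228. The median over all other genes tested was 0.75, and the nearest were taken from the 6575 genes left by the same rule on SD. Irs2 encodes an adaptor of insulin signalling and Plk3 a stress-responsive kinase.

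Of the 19 tested target genes, 6 were higher and 13 lower in sgZrsr2, with a median log2 fold change of -0.26 that came to -0.03 without EV mouse 3. None had an unadjusted p under 0.05. Gadd45b had the largest fitted difference of the list, -1.41 (SE 0.70, unadjusted p = 0.0688, edgeR adjusted p = 0.714), and without EV mouse 3 it was -0.71. Besides EV mouse 3, EV mouse 4 was high at 101 CPM, and EV mouse 5 and sgZrsr2 mice 3 and 5 were low at 13.1, 17.0 and 15.04 CPM. Junb, an AP-1 transcription factor gene with the highest CPM of the list, had 409 to 1236 CPM in EV and 427 to 762 in sgZrsr2. Zeb1, a transcriptional repressor gene, had 45.6 to 53.5 CPM in EV and 51.3 to 65.3 in sgZrsr2 (log2 fold change 0.22, unadjusted p = 0.0563).

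**Figure D4:**
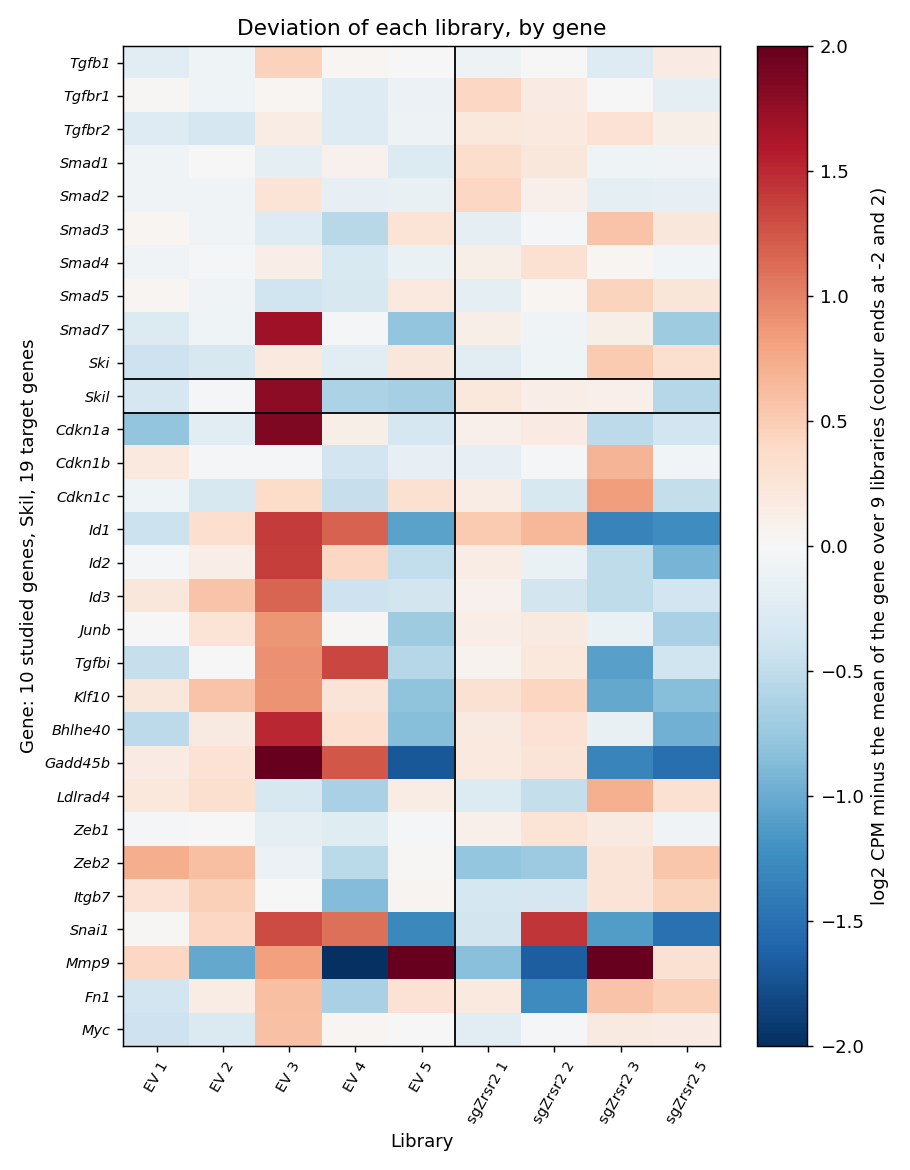
Deviation of each gene's log2 CPM from its own mean over the 9 libraries (colour, ending at -2 and 2) for the 10 members, Skil and the 19 tested target genes (vertical), by library (horizontal). EV mouse 3 is the highest library for Smad7, Skil and 10 of the 19 target genes, and Smad3, Smad5 and Ski are highest in EV mouse 5 and sgZrsr2 mice 3 and 5.

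Ski (ENSMUSG00000029050), on chromosome 4 from 155154075 to 155222592 on the minus strand, encodes a corepressor that binds Smad2, Smad3 and Smad4. Its levels were 52.3, 56.1, 79.9, 59.8 and 81.6 CPM in EV mice 1 to 5. In the 4 sgZrsr2 mice Ski was at 59.7, 66.2, 101 and 87.6 CPM. The 3 highest values were again those of sgZrsr2 mice 3 and 5 and EV mouse 5, with EV mouse 3 next. The group means were 66.0 ± 13.8 and 78.7 ± 19.1 CPM (SD, n = 5 and 4), and the log2 fold change was 0.25 with a 95% interval of -0.17 to 0.67 (edgeR adjusted p = 0.750). Without sgZrsr2 mouse 3 it was 0.11, and it was 0.03 without the 3 libraries with high erythroid sums, which held the 3 highest Ski values.

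Smad3, Smad5 and Ski thus shared their 3 highest libraries. The same 3 libraries held the high values of the erythroid genes and of most listed megakaryocyte genes. This order was not particular to these members: the LSK genes Kit and Slamf1 and the receptor genes Eng, Acvr1b and Tgfbr3 had the same 3 highest libraries. The share of all genes with these 3 highest libraries was not counted. The erythroid sum ran from 3.56 to 54.4 CPM in EV and from 5.05 to 113 in sgZrsr2, and 5 of its 8 genes were tested, all 5 with a higher fitted level in sgZrsr2 and none at an adjusted p of 0.05. None of the 8 erythroid genes was at 0 in every library. The sum of 8 megakaryocyte and platelet genes was 374, 457 and 547 CPM in the 3 libraries and 160 to 308 in the other 6, from 160 to 374 over EV and 256 to 547 over sgZrsr2. Itga2b, the largest part of this sum, had another order. It had 263 CPM in EV mouse 4 and 235 in sgZrsr2 mouse 1, above 222 in sgZrsr2 mouse 3 and 198 in EV mouse 5. Ppbp, at 0.934 CPM in sgZrsr2 mouse 1, also lay above those 2 mice there. All 8 megakaryocyte and platelet genes had a higher fitted level in sgZrsr2, none at an adjusted p of 0.05. The sum of 8 neutrophil and monocyte genes was 257 to 382 CPM in EV and 132 to 372 in sgZrsr2, with 5 of 7 tested genes higher and 2 lower, 1 of them (Ccr2) at an unadjusted p of 0.0276. The sum of 7 lymphoid genes was 93.3 to 344 CPM in EV and 58.6 to 244 in sgZrsr2, and all 6 tested were lower in sgZrsr2 (median log2 fold change -0.93), none at an unadjusted p under 0.05. The part of these cell types in the values of Smad3, Smad5 and Ski was not tested. Leaving out the 3 libraries could not test it, because they held the highest values of all 3 genes. Without the 3 libraries, 4 EV and 2 sgZrsr2 libraries remained, and the groups then did not overlap for Tgfbr1, Tgfbr2 and Smad1, beside 23.2% of all genes. The 2 were sgZrsr2 mice 1 and 2, the most alike of all pairs. Both lay above every EV mouse for Tgfbr1, Tgfbr2 and Smad1 before any library was left out. The separation of these genes thus followed from which libraries remained and adds no support for a difference. Tgfbr1 (log2 fold change 0.36) and Smad1 (0.34) then had an unadjusted p under 0.05, beside 11% of all genes. Genes of stroma and endothelium, which could carry TGF-beta family RNA of their own, summed to 182 to 246 CPM in EV and 211 to 249 in sgZrsr2, nearly all of it Pecam1 and Pdgfrb, while Cxcl12 did not exceed 1.48 CPM and Col1a1 did not exceed 0.364.

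**Figure D5:**
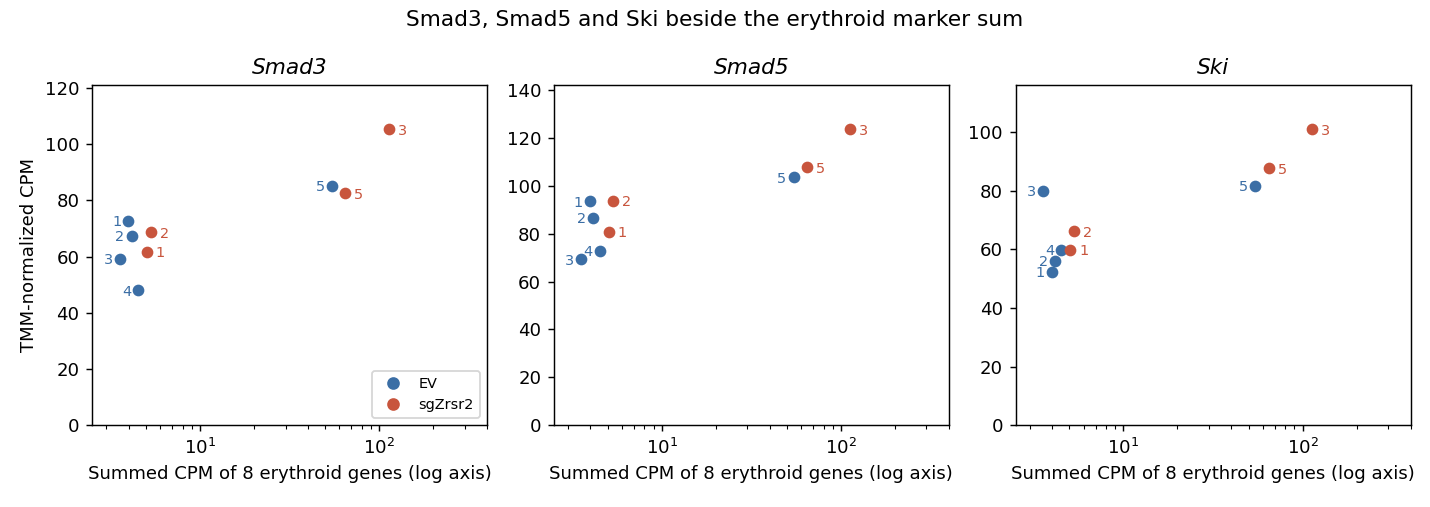
Normalized CPM of Smad3, Smad5 and Ski (vertical axes, from 0) against the summed CPM of 8 erythroid genes (horizontal, log axis); each point is 1 mouse with its number, EV in blue and sgZrsr2 in red. The 3 libraries with sums of 54.4, 64.6 and 113 CPM have the 3 highest values of each gene.

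Of 20 further negative regulators and nuclear partners of the Smads, 18 were tested, 12 of them higher and 6 lower in sgZrsr2 (median log2 fold change 0.08, or 0.04 without sgZrsr2 mouse 1). Sin3a, a scaffold of histone deacetylase complexes that Ski recruits, was the 1 gene of this list at an unadjusted p under 0.05 (6.85% of all genes). Sin3a had 125, 132, 125.7, 115 and 145 CPM in EV mice 1 to 5 and 155, 157, 147 and 149 CPM in the sgZrsr2 mice. The groups lay side by side without overlap (3.06% of all genes), and the log2 fold change was 0.24 (SE 0.10, unadjusted p = 0.0297, edgeR adjusted p = 0.714). When 1 library was left out, its unadjusted p was under 0.05 in 5 of 9 fits and at most 0.0748, and under the other settings in 10 of 12 and at most 0.122. Smurf1, a ubiquitin ligase gene whose product acts with Smad7 on receptors, had 28.1 to 32.6 CPM in EV. In sgZrsr2 mice 1, 2, 3 and 5 Smurf1 had 53.0, 41.6, 31.0 and 28.6 CPM, so that mice 1 and 2 lay above the EV range and mice 3 and 5 within it. Its log2 fold change was 0.39 (unadjusted p = 0.05005, edgeR adjusted p = 0.714) and 0.19 without sgZrsr2 mouse 1. Ncor1, a corepressor gene with the highest CPM of the list, had 281 to 362 CPM in EV and 320 to 395 in sgZrsr2.

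sgZrsr2 mouse 1 was the highest library for Tgfbr1, Smad1 and Smad2, and sgZrsr2 mouse 3 for Tgfbr2, Smad3, Smad5 and Ski. sgZrsr2 mouse 2 was the highest for Smad4, and EV mouse 3 for Tgfb1 and Smad7. Over all genes tested, sgZrsr2 mouse 1 was the highest library for 10.2%, sgZrsr2 mouse 2 for 8.93%, sgZrsr2 mouse 3 for 21% and EV mouse 3 for 20.2%.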

How the data were processed

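RNA was measured in 9 libraries of sorted LSK bone marrow cells, made from 5 ng of total RNA each with selection of polyadenylated RNA and PCR, per the labels' protocols. The values are expected counts per gene, as the authors deposited them, estimated and not normalized; RSEM divides reads that match several genes, so they need not be whole, but those of the 10 members were whole in every library. The submitters' processing notes name cutadapt 1.11, RSEM 1.2.30 and the GRCm38 build. The aligner, the annotation and the strandedness are not given in the sources used here; no other gene of the table overlaps a member. Low input and PCR duplicates can widen the spread between libraries.

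Counts were rounded, filtered with filterByExpr (minimum count 10, minimum total 15; 14944 genes kept), scaled with TMM factors (0.894 to 1.07) and compared with edgeR 4.0.16 (glmQLFit and glmQLFTest, R 4.3.3), with p-values adjusted by Benjamini-Hochberg over all genes that passed the filter. The SE is the size of the log2 fold change over the square root of F. Levels are TMM-normalized CPM, and CPM per kb uses the union of exons in GENCODE M21. The exact permutation test enumerates every assignment of the 9 libraries to groups of 5 and 4. Depth (23238264 to 45585531 counts) limits precision for genes of few counts. The test was checked on simulated data, in which it seldom recovered changes as small as those of the members.

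The members, gene lists and tests were chosen with earlier results of these data known. From each further pathway list the rule named the 2 genes with the smallest p and the 1 with the highest level; the likeness rule took the 2 members with the largest SD, the 3 nearest genes, and left out genes with an SD under 0.5 times the member's. Other genes were named after their values were seen. The alternatives tried were upper-quartile and RLE factors, no filter, a filter of 1 CPM in 4 libraries, DESeq2 1.42.0, limma-voom (limma 3.58.1) with and without sample weights, robust dispersion, counts not rounded, the mouse number as a block and leaving out each library; averaging sgZrsr2 mice 1 and 2 and leaving out the 3 libraries with high erythroid sums were added after the data were seen. Promoters are RefSeq's (GRCm38.p6), found for 7 of 10 members. Figures were drawn with matplotlib 3.10.9.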

Additional observations from a re-analysis of the deposited data

Results flagged for a closer look

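Among 50 sets of values (25 genes in each group), 8 had a library whose gap to its nearest neighbour was large for the range of its group. For independent sets chance alone gives about 1 in 20, or 2.5 of 50. These sets share the same 9 libraries, and some genes were named for a small p, so the counts cannot show an excess over chance. Smad7 in EV mouse 3 was 221 CPM, against 39.2 to 66.9 in the other 4 EV mice. Smad2 in EV mouse 3 was 67.2 CPM, against 49.4 to 53.1 in the others. Zrsr2 in EV mouse 3 was 62.2 CPM, against 50.6 to 51.9, Furin in EV mouse 3 was 127 CPM, against 74.5 to 86.1, and Smurf1 in EV mouse 3 was 32.6 CPM, against 28.1 to 29.3. EV mouse 3 thus accounted for 5 of the 8. Bmp1 in EV mouse 5 was 18.2 CPM, against 11.8 to 13.2 in the others. Ncor1 in EV mouse 4 was 281 CPM, against 355 to 362. Furin in sgZrsr2 mouse 2 was 113 CPM, against 109 to 110 in the other sgZrsr2 mice, a small gap in a tight group.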

How the results depend on the processing

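Tgfbr2, Tgfbr1, Smad1, Smad3, Smad4, Smad5 and Ski kept a higher fitted level in sgZrsr2 under all 21 alternatives. Values of Tgfb1, Smad7, Smad2 and Ncor1 turned sign in some: Tgfb1 was 0.0426 (log2 fold change) with sample weights and -0.17 to 0.0121 when 1 library was left out, Smad7 was 0.0604 with sample weights and -0.69 to 0.155, Smad2 was -0.0563 to 0.17, and Ncor1 was -0.0182 with sample weights and -0.0166 without the 3 libraries with high erythroid sums. The median of the members stayed between 0.14 and 0.20, and between 0.14 and 0.23 when 1 library was left out; 7 to 10 members were then higher. Genes at an adjusted p of 0.05 numbered 16 with DESeq2 and 1 with sgZrsr2 mice 1 and 2 averaged. Genes at an unadjusted p under 0.05 numbered 2551 with sample weights, 1692 without the 3 libraries, and 609 (without EV mouse 4) to 1292 (without EV mouse 5) when 1 library was left out. Members at that p numbered 2 with sample weights and 2 without the 3 libraries, beside 17.1% and 11% of genes. Groups did not overlap for 530 to 1080 genes when 1 library was left out and for 3556 without the 3 libraries (23.2%); for members the counts were 0 to 1, 3 without the 3 libraries and 1 with upper-quartile factors. The mouse numbers did not pair the groups throughout (correlations of deviations -0.227, -0.0904, -0.404 and 0.369 for mice 1, 2, 3 and 5). For sgZrsr2 mice 1, 2 and 3 the best match in EV had another number, while sgZrsr2 mouse 5 matched EV mouse 5 best. With the number as a replicate block, 341 genes had an unadjusted p under 0.05 and Tgfbr2 was 0.35 (unadjusted p = 0.031, edgeR adjusted p = 1). The cause of these changes was not tested.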
